A study of Mus musculus with 6 samples.

Results

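The nuclei described here are the pericyte, smooth muscle and leptomeningeal fibroblast candidates of the mouse hippocampus, 201 of the 27766 nuclei that passed the quality limits (0.724%) and of 30323 deposited barcodes in all. Passing required 500 genes or more, and no more than 5% of UMIs (unique molecular identifiers, the counted RNA molecules) from mitochondrial genes. A nucleus was chosen when the 6 genes Pdgfrb, Rgs5, Vtn, Col1a1, Col1a2 and Slc6a13 together had at least 3 UMIs, with at most 2 UMIs of Slc17a7, Snap25, Gad1 and Gad2 (neurons), at most 1 of Flt1 and Cldn5 (endothelium), at most 1 of Mog, Mag and Mobp (oligodendrocytes) and at most 2 of Gja1 and Aqp4 (astrocytes). More Pdgfrb, Rgs5 and Vtn than Col1a1, Col1a2 and Slc6a13 UMIs made a nucleus mural (116 nuclei), the reverse made it leptomeningeal (78), and 7 were tied. Because measured levels chose these nuclei, those 17 genes are given as levels and were left out of every test over the members. At the lower edge, 35 members had exactly 3 selecting UMIs and 64 nuclei just outside had 2.

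The study profiled single nuclei from hippocampus, labelled as dentate gyrus, with 10x Genomics 3' chemistry, to compare the class I histone deacetylase inhibitor CI-994 with its vehicle after contextual fear conditioning (CFC). All mice were C57BL/6J males aged 12 weeks, injected intraperitoneally 1 h before the conditioning chamber and killed 1 h after it. The groups were Veh-CFC (vehicle, 2 foot shocks of 0.2 mA; 2 libraries), HDACi-CFC (CI-994 at 30 mg/kg, the same shocks; 2 libraries), Veh-Context (vehicle, chamber with no shock; 1 library) and HDACi-Context (CI-994, no shock; 1 library). Each library pooled the hippocampi of 5 mice, so single animals cannot be compared. The library labelled Veh-Context is vehicle by its title and treatment label although its description names the inhibitor, and the Context libraries carry another Cell Ranger version in their file headers than the CFC libraries, so exposure and a possible library batch cannot be told apart. Libraries held between 24508202 and 45570814 UMIs, and library pairs shared between 1 and 11 barcodes. Members had median depths of 1718.5 to 2981 UMIs per library, against 5522 to 6981 over all passing nuclei.

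Pericytes and smooth muscle cells, the mural cells, wrap capillaries and arterioles within a shared basement membrane. They read PDGF-BB from the endothelium through PDGFRβ, and set vessel calibre through potassium channels, calcium release, cyclic GMP and myosin light chain kinase. Leptomeningeal fibroblasts line the arachnoid, the pia and the larger penetrating vessels, where they make collagen, laminin, retinoic acid, prostaglandin D2 synthase and many organic solute carriers. Class I histone deacetylases remove acetyl groups from histones, and inhibitors such as CI-994 alter transcription within hours.

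Genes that the choice had not used divided the members into 3 kinds. In 63 nuclei the pericyte and smooth muscle lists (44 genes) held more UMIs than the leptomeningeal fibroblast list (34 genes), with medians of 28 against 5 UMIs, and these are called pericyte-like. In 117 nuclei the fibroblast list held more, with medians of 61 against 3 UMIs, and these are called fibroblast-like. The remaining 21 nuclei carried the astrocyte genes Slc1a2 (a glutamate transporter) and Gpc5 (a glypican) at 12.7 to 29.4 UMIs per 1000, where none of the other 180 exceeded 6.04. In them both vascular lists were nearly empty, at medians of 1 and 2 UMIs.

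**Figure D1:**
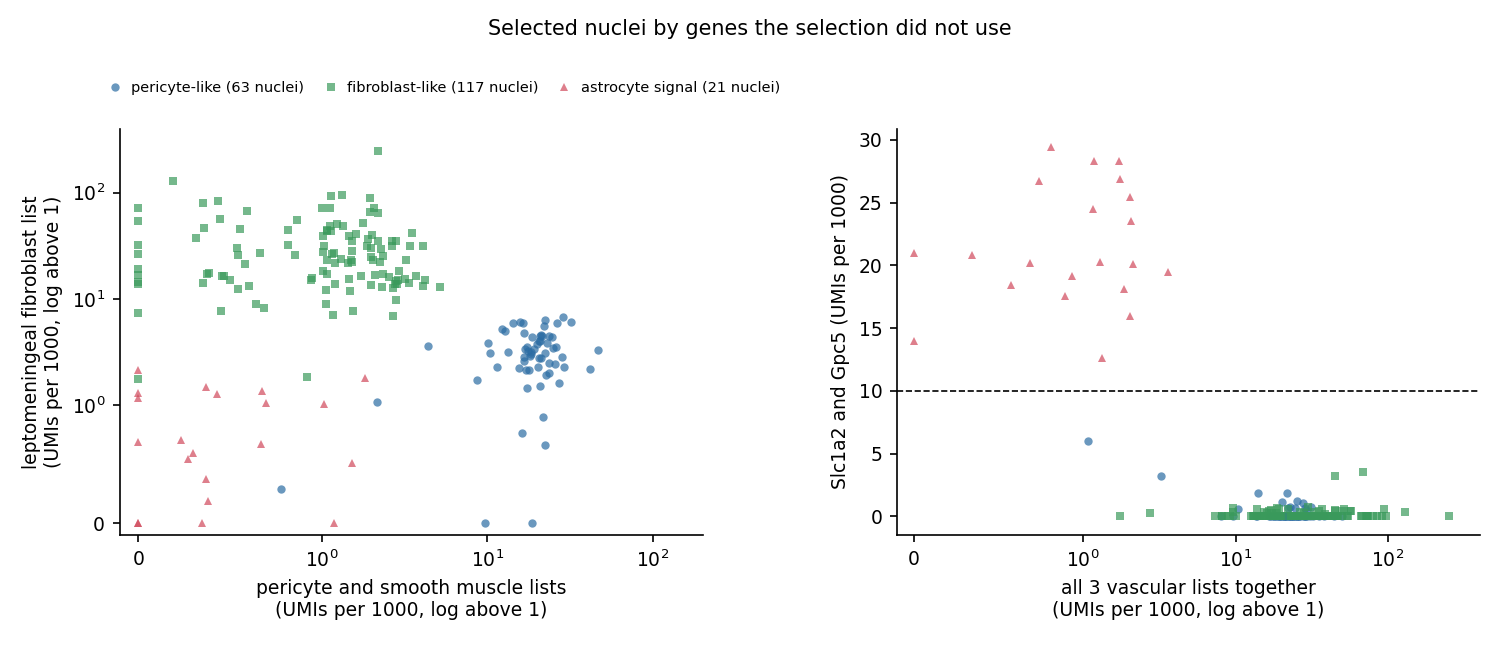
Each point is 1 selected nucleus. Left, UMIs per 1000 of the pericyte and smooth muscle lists (x) against the leptomeningeal fibroblast list (y), both axes linear up to 1 and logarithmic above. Right, UMIs of all 3 vascular lists per 1000 (x) against Slc1a2 and Gpc5 per 1000 (y), with the dashed line at 10. The 63 pericyte-like and 117 fibroblast-like nuclei form separate clouds, and the 21 nuclei above the line have few vascular list UMIs.

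The 3 kinds cut across the mural and leptomeningeal labels. Of the 116 nuclei labelled mural, 63 (54.3%) were pericyte-like, 33 (28.4%) were fibroblast-like and 20 (17.2%) carried the astrocyte signal. Of the 78 labelled leptomeningeal, 77 were fibroblast-like and 1 carried the astrocyte signal. The 33 fibroblast-like nuclei labelled mural held 339 UMIs of Vtn (vitronectin, a blood and matrix glycoprotein) and no Rgs5 UMI. All 99 Rgs5 UMIs, the transcript of a G-protein signalling regulator of pericytes, lay in 46 of the 63 pericyte-like nuclei. The 21 astrocyte-signal nuclei had a median of 3 selecting UMIs, the minimum, and 52 of their 70 selecting UMIs were Pdgfrb. Among the 180 others, 4 had under 5 UMIs of the vascular lists per 1000 and are weakly placed. Of all members 1 was called a doublet by Scrublet, which called 927 nuclei (3.34%) in all. It is a pericyte-like nucleus of Veh-CFC replicate 1 with 10272 UMIs, 47.0% of those of the pericyte-like nuclei in that library. It had 5 UMIs of the pericyte list, 3 of the smooth muscle list, 286 of the neuron list and 119 of the astrocyte list, so its placement is weak. Some of the results it changes are also given without it, a choice made after the data were seen.

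The genes leading each kind over all other passing nuclei matched the labels in the main, and are given without a test because the same cells defined the kinds. Cysltr2 (a leukotriene receptor), Kcnj8 and Abcc9 (the pore and the sulfonylurea subunit of the vascular ATP-sensitive potassium channel) led the pericyte-like nuclei, at 429, 457 and 1448 CPM (UMIs per 1000000 UMIs of the same nuclei) against 0.242, 0.306 and 1.16 CPM elsewhere. Atp13a5, Ebf1 and Tbx2 of the pericyte list were also among the first 10. Smooth muscle was sparse: 15 of the 63 nuclei had at least 3 UMIs of that list, and 19 of the 22 Acta2 UMIs, the smooth muscle actin transcript, came from 1 nucleus of HDACi-CFC replicate 2. Median depth in the pericyte-like nuclei was 1516 UMIs, the lowest of the 3 kinds.

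In the fibroblast-like nuclei (median 2638 UMIs) Slc6a13 and Slc6a12, which carry GABA, betaine and taurine, came first, at 1180 and 150.3 CPM. Next were the laminin chain Lama1, the transcription factor Foxd1 and the proline carrier Slc6a20a at 1384, 379 and 4246 CPM. The retinoic acid enzyme Aldh1a2 and the anion carriers Slc13a4 and Slc22a6 were also among the first 10. Set against the pericyte-like nuclei, the cystine carrier Slc7a11 ranked first by the ratio of CPM, with 1574 UMIs in the fibroblast-like nuclei and 3 in the pericyte-like ones. Pericyte-like counts under 3 UMIs were set to 3 for this ranking, which limited the ratio of genes absent there. Adam12, Bmp6 and Cemip had 465, 640 and 642 UMIs in the fibroblast-like nuclei and none in the pericyte-like ones. Ptgds (prostaglandin D2 synthase) alone gave 51.8% of the fibroblast list's mean level, and leaving it out changed the number of nuclei of each kind in none of the 6 libraries.

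The astrocyte-signal nuclei were led by Pdgfrb, which chose them, followed by Slc7a10, Fgfr3, Rfx4, Slco1c1, Gli3, Wwtr1, Prdm16, Fam107a and F3. Slc7a10 and Fgfr3 are in the astrocyte list and Slco1c1 in the endothelial list, and apart from Pdgfrb none of these 10 was a selecting gene or in the pericyte or fibroblast lists. The label of a mural or leptomeningeal cell was therefore not borne out by the data for these 21 nuclei, and the main results below are given with and without them.

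The share of members among the passing nuclei overlapped between vehicle and CI-994 after CFC. It was 0.685% and 0.752% in the Veh-CFC libraries and 0.481% and 0.902% in the HDACi-CFC libraries, or 0.718% ± 0.0472 and 0.692% ± 0.298 (SD, n = 2 each). The Context libraries stood at 0.840% (labelled vehicle) and 0.621% (CI-994). Without the astrocyte-signal nuclei the share was 0.658, 0.709 and 0.820% with vehicle and 0.347, 0.687 and 0.603% with CI-994. The means after CFC were then 0.684% ± 0.0355 and 0.517% ± 0.240 (SD, n = 2), and over both exposures 0.729% ± 0.0829 and 0.546% ± 0.177 (SD, n = 3; two-sided exact permutation p = 0.2), and the groups still overlapped. The 95% Clopper-Pearson intervals, which cover counting error only, ran from 0.285 to 0.759% in HDACi-CFC replicate 1 and from 0.661 to 1.20% in replicate 2. An exact test of 2 against 2 libraries cannot give a p under 0.333, so none was made.

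The makeup of the members varied with the libraries too. Astrocyte-signal nuclei numbered 1, 2 and 1 in the vehicle libraries (CFC replicates 1 and 2, then Context) and 5, 11 and 1 in the CI-994 libraries, so both HDACi-CFC libraries stood above the other 4. Fibroblast-like nuclei made up 0.448, 0.580 and 0.600% of passing nuclei with vehicle and 0.160, 0.392 and 0.311% with CI-994. Every CI-994 library lay below every vehicle library, at means of 0.288% ± 0.118 and 0.543% ± 0.0828 (SD, n = 3; two-sided exact permutation p = 0.1, the smallest that 3 against 3 libraries allow). Pericyte-like nuclei made up 0.211, 0.129 and 0.220% with vehicle and 0.187, 0.294 and 0.292% with CI-994, which overlapped (exact permutation p = 0.3, n = 3).

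**Figure D2:**
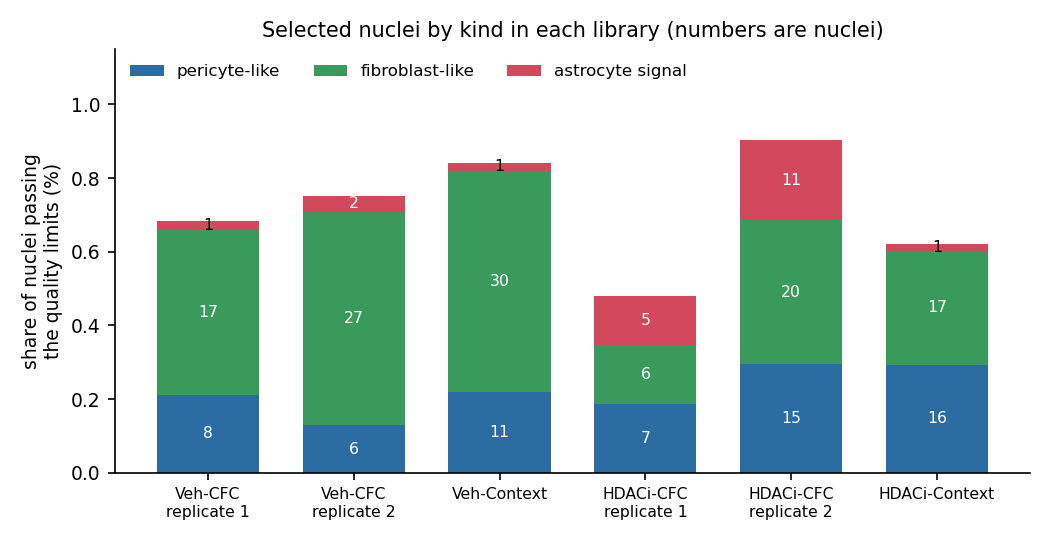
Stacked bars give the share of passing nuclei in each library (y, percent) that are pericyte-like, fibroblast-like or astrocyte-signal members, with the number of nuclei in each piece. The fibroblast-like piece is smaller in each CI-994 library than in each vehicle library, and the astrocyte-signal piece is largest in HDACi-CFC replicates 1 and 2.

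Among members without the astrocyte signal, pericyte-like nuclei were 32.0, 18.2 and 26.8% with vehicle and 53.8, 42.9 and 48.5% with CI-994. The groups did not overlap (25.7% ± 6.98 and 48.4% ± 5.50, SD, n = 3; exact permutation p = 0.1 for this measure). Any sum over the members therefore mixed the kinds in different proportions in the vehicle and CI-994 libraries. This holds beside each result over all members below, where fewer nuclei of a kind and less RNA per nucleus of that kind cannot be told apart. The 3 measures of makeup were computed in 1 family with the share without the astrocyte signal and the pericyte-like percentage without Ptgds. None of them can pass 0.05 with 3 libraries a side.

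After CFC, CI-994 went with 67 higher and 23 lower genes among 1983 tested over all members (4.54% called; 3.38% higher and 1.16% lower; edgeR quasi-likelihood test, Benjamini-Hochberg adjusted p under 0.05). Most of the higher genes had a higher CPM in the astrocyte-signal nuclei than in the other members. Slc1a2 stood at 35 and 60 UMIs in the Veh-CFC libraries and 132 and 347 in the HDACi-CFC libraries (log2 fold change 2.63, SE 0.37, edgeR adjusted p = 0.0181), and 594 of its 651 UMIs over all 6 libraries came from the 21 astrocyte-signal nuclei. Slc1a2 and Gpc5 defined those nuclei, so this share follows in part from the choice. Fam107a, an actin-associated stress-responsive gene, had 0 and 1 UMIs with vehicle and 8 and 33 with CI-994, and 47 of its 54 UMIs lay in those nuclei. Among the 12 highest genes by the fixed rule were also the protease Htra1, the glycolytic enzyme Aldoc, the receptor Gpr37l1 and the formin Daam2, each with a log2 fold change between 2.37 and 2.65. Of the 67 higher genes, 57 had a higher CPM in the astrocyte-signal nuclei than in the other members, against 34.9% of all tested genes, and 2 of the 23 lower genes did. The HDACi-CFC libraries held 5 and 11 of those 21 nuclei, so the same counts enter the calls and this comparison. It is a description and no separate evidence.

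Astrocyte markers moved with this result. The list of 13 summed to 7624, 8207 and 6321 CPM with vehicle and to 22010, 16980 and 7221 CPM with CI-994 over all members, with no marker at 0. It ran from 23871 to 41839 CPM in the astrocyte-signal nuclei themselves. Slc1a2 and Gpc5 of this list defined those nuclei, so the fall of the list without those nuclei follows in part from the choice. The tests without those nuclei did not leave these genes out. Without those nuclei the list was 5871, 6293 and 5169 CPM with vehicle and 11621, 8744 and 6740 CPM with CI-994. Slc1a2 was then 287, 61.8 and 190 CPM with vehicle and 170, 111 and 30.0 CPM with CI-994. In the same fit without those nuclei, no gene of 1601 was called in either direction by edgeR, with 265 at an unadjusted p under 0.05. DESeq2 on all members called 11 higher and 3 lower, and no gene was called by edgeR without Veh-CFC replicate 1.

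**Figure D3:**
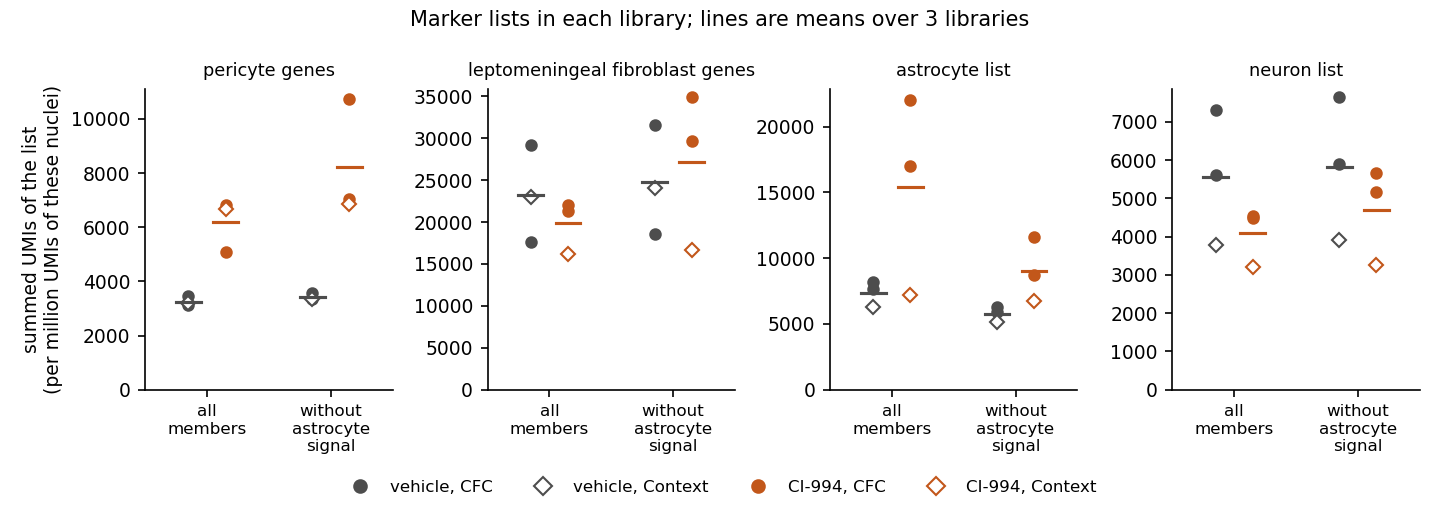
Summed CPM of 4 marker lists (y) in each library, over all members and without the astrocyte-signal nuclei (x). Circles are CFC and open diamonds Context libraries, grey vehicle and orange CI-994, and lines are means of 3 libraries. The pericyte list is higher in every CI-994 library in both panels, and the astrocyte list drops in the HDACi-CFC libraries when the 21 nuclei are left out. Slc1a2 and Gpc5 of the astrocyte list defined those nuclei.

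Among the lower genes after CFC, 1 or a few nuclei carried much of the vehicle signal. Fbxl7, a ubiquitin ligase subunit of the fibroblast list, had 79 and 43 UMIs with vehicle and 1 and 11 with CI-994 (log2 fold change -3.27, SE 0.61, edgeR adjusted p = 0.0294), and of the 227 UMIs over all libraries 1 nucleus of Veh-CFC replicate 1 held 41 and 1 nucleus of HDACi-Context held another 41. Cntnap2 and Nrxn3, neuronal adhesion genes, had 83 and 69, and 70 and 50 UMIs with vehicle, and 5 and 14, and 7 and 17 with CI-994. The 10272-UMI nucleus of Veh-CFC replicate 1 held 69 of the 187 Cntnap2 UMIs and 49 of the 158 Nrxn3 UMIs. Without it 73 genes were called higher and 14 lower after CFC, and neither Cntnap2 (log2 fold change -1.85, edgeR adjusted p = 0.0834) nor Nrxn3 (-1.35, 0.0883) was called. Across the 6 libraries the neuron list was 7308, 5617 and 3780 CPM with vehicle and 4492, 4538 and 3217 CPM with CI-994, and its part in these calls was not tested.

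Adam12, a metalloprotease found here in fibroblast-like nuclei alone, had 57 and 197 UMIs with vehicle and 9 and 42 with CI-994 after CFC (log2 fold change -2.06, SE 0.47, edgeR adjusted p = 0.034). Within the fibroblast-like nuclei its level was 1284, 2275 and 1520 CPM with vehicle and 649, 743 and 1083 CPM with CI-994. The groups did not overlap there, but the difference did not pass (log2 fold change -1.18, edgeR adjusted p = 0.304 over 1205 genes).

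Over both exposures, with all 6 libraries and exposure in the model, edgeR called no gene of 2283 in either direction (0.0%), with 518 at an unadjusted p under 0.05. DESeq2 called 10 higher and 2 lower, and edgeR called 53 higher and 17 lower without the library labelled Veh-Context, and 80 and 19 without HDACi-Context. Leaving out the astrocyte-signal nuclei, a choice made after the data were seen, gave 38 higher and 7 lower genes of 1954 (2.3% called; 1.94% higher and 0.358% lower), with 399 at an unadjusted p under 0.05. DESeq2 called 25 and 3 in those nuclei. Without the 10272-UMI nucleus edgeR called 41 higher and 12 lower of 1936, among them all 38 and 7. These calls depended on the libraries: edgeR called none in either direction without Veh-CFC replicate 1, Veh-CFC replicate 2, HDACi-CFC replicate 1 or HDACi-Context, 1 higher without HDACi-CFC replicate 2, and 10 higher and 6 lower without the library labelled Veh-Context.

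Genes of pericyte-like nuclei and genes of fibroblast-like nuclei were both among those called higher in that fit. Of the 24 pericyte genes 13 were tested, 3 were called higher and none lower, and their median log2 fold change was 1.26 against -0.04 over all tested genes. Abcc9 stood at 136, 206 and 246 CPM with vehicle and 766, 492 and 674 CPM with CI-994 (log2 fold change 1.63, SE 0.34, edgeR adjusted p = 0.0425). Notch3, the receptor that keeps mural cells differentiated, and P2ry14, a receptor for UDP-glucose, had log2 fold changes of 2.19 and 1.83 in this fit. For Abcc9, Notch3 and P2ry14 the 3 CI-994 libraries lay above the 3 vehicle libraries. The share of all tested genes without such overlap is not given here, so this adds nothing to their calls.

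Genes of contraction and vessel tone were called with them. Mylk, the myosin light chain kinase and the 1 called gene of 2 tested in the smooth muscle list, stood at 30.2, 41.2 and 33.6 CPM with vehicle and 468, 172 and 195 CPM with CI-994 (log2 fold change 2.70, SE 0.57, edgeR adjusted p = 0.0425). Cald1, the actin-binding caldesmon, stood at 815, 649 and 638 CPM with vehicle and 3278, 1697 and 1842 CPM with CI-994 (log2 fold change 1.64, edgeR adjusted p = 0.0412). Among 25 tested genes of vessel tone 4 were called higher and none lower, at a median log2 fold change of 1.00. These were Abcc9, P2ry14, the cyclic AMP phosphodiesterase Pde4d (1.28) and the guanylate cyclase subunit Gucy1b1 (1.72).

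Cysltr2 and the calcium-activated chloride channel Ano1, with all of their 45 and 49 UMIs in pericyte-like nuclei, had log2 fold changes of 2.89 and 2.61 (edgeR adjusted p = 0.0412 for both). The pericyte list itself summed to 3577, 3347 and 3334 CPM with vehicle and to 10727, 7059 and 6860 CPM with CI-994 in these nuclei. The pericyte-like nuclei gave 33.0, 10.8 and 17.6% of the UMIs with vehicle and 40.9, 30.5 and 33.6% with CI-994. The first value was 20.7% without the 10272-UMI nucleus, and the groups then did not overlap.

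Within the 63 pericyte-like nuclei alone the fitted values of the same genes were smaller and depended on the scaling. The pericyte list summed to 8688, 18873 and 14903 CPM with vehicle and to 23923, 19944 and 18124 CPM with CI-994, so that the lowest of the 6 values was Veh-CFC replicate 1. There the 10272-UMI nucleus weighed heavily: without it the pericyte list stood at 15951 CPM, the neuron list at 4570 in place of 15501 CPM (3630 to 7489 in the other 5 libraries) and Abcc9 at 776 in place of 412 CPM. Abcc9 was 412, 1716 and 1401 CPM with vehicle and 1872, 1612 and 2004 CPM with CI-994, which overlapped. Its log2 fold change was 0.22 (SE 0.39) with TMM scaling, 0.70 (SE 0.55) with library-size scaling, -0.15 (SE 0.41) without Veh-CFC replicate 1 and 0.04 (SE 0.35) without that nucleus, against 1.63 over all members without the astrocyte signal. Whether those values differ between the fits was not tested.

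Library-size scaling raised the median log2 fold change of all 269 genes tested in these nuclei from -0.06 to 0.48, and Art3, Atp13a5, Kcnj8, Rgs4 and Slc38a11 of the pericyte list turned from negative to positive with it. Atp13a5, the most abundant pericyte list gene, had -0.28 (SE 0.26) with TMM and 0.25 (SE 0.40) with library-size scaling, and Kcnj8 -0.14 (SE 0.55) and 0.39 (SE 0.62). Over the 11 genes of the pericyte and smooth muscle lists that could be fitted, 5 were positive with TMM (median -0.14) and 10 with library-size scaling (0.39), in each case close to the median of all genes under the same scaling. Without the 10272-UMI nucleus 7 of the 11 could be fitted among 152 genes, and 3 were positive with TMM (median -0.03) and 5 with library-size scaling (0.44). P2ry14 was 0.47 (SE 0.48) and 1.07 (SE 0.58), and Notch3 0.80 (SE 0.48) and 1.34 (SE 0.57). With that nucleus left out P2ry14 was 0.39 (SE 0.47) and 0.86 (SE 0.49), and Notch3 0.57 (SE 0.43) and 1.05 (SE 0.44).

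Notch3 was 366, 1049 and 764 CPM with vehicle and 3432, 1209 and 1113 CPM with CI-994, so the groups did not overlap and HDACi-CFC replicate 1 was highest. The genes of the 3 identity lists split these nuclei, so no p-value is given for them.

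Mylk and Cald1 stood above the median of all genes under both scalings. Mylk was 91.4, 95.3 and 127 CPM with vehicle, from 5 UMIs in all, and 832, 564 and 445 CPM with CI-994, from 32 UMIs (log2 fold change 1.81, SE 0.70, and 2.41, SE 0.85, with library-size scaling). Cald1 was 1372, 2860 and 1783 CPM with vehicle and 6865, 3989 and 4230 CPM with CI-994, with no overlap, but did not pass (log2 fold change 0.80, SE 0.31, edgeR adjusted p = 0.224; 1.33 with library-size scaling). Without the 10272-UMI nucleus Veh-CFC replicate 1 stood at 172 CPM for Mylk, which could then not be fitted, and at 2587 CPM for Cald1 (0.57, SE 0.25), which was called with library-size scaling (1.05, SE 0.25, edgeR adjusted p = 0.00664). Prkg1, the cyclic GMP-dependent kinase, was 2286, 2860 and 3949 CPM with vehicle and 5513, 4916 and 5878 CPM with CI-994 (log2 fold change 0.29, SE 0.27, edgeR adjusted p = 0.602). With that nucleus left out the first Prkg1 value was 3708 CPM and the log2 fold change 0.15 (SE 0.22).

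Across the 269 genes tested in the pericyte-like nuclei, edgeR called none in either direction (0.0%), with 38 at an unadjusted p under 0.05, and DESeq2 called none, with 21. The smallest adjusted p-values went to Arid5b, a chromatin-associated factor, and Rere, a nuclear receptor corepressor. Arid5b had 1 UMI in each vehicle library and 11, 19 and 16 in the CI-994 libraries (log2 fold change 3.03, SE 0.70, edgeR adjusted p = 0.0746), so the groups stood clear of each other on few molecules. With library-size scaling Arid5b, Tns1 (tensin 1, an adhesion protein), Malat1 (a nuclear noncoding RNA), Gm14005 and Gm30624 were called higher, 5 of 269. Malat1 had a log2 fold change of 0.35 under that scaling and -0.25 with TMM. Without the library labelled Veh-Context, 7 genes were called lower in these nuclei. Without the 10272-UMI nucleus Arid5b was called higher (3.36, SE 0.76) and Rere lower (-2.21, SE 0.52; edgeR adjusted p = 0.0276 for both) of 152 genes with TMM, and 6 were called higher with library-size scaling.

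In the fibroblast-like nuclei edgeR called 3 of 1205 genes higher with CI-994 and none lower (0.249% called; 142 at an unadjusted p under 0.05), and DESeq2 called 3 higher and none lower. They were Slc6a20b, Ier3 and Neat1. For each, all 3 CI-994 libraries lay above all 3 vehicle libraries, which the rule for naming genes required. The astrocyte list moved with them in these nuclei, at 4799, 6409 and 5388 CPM with vehicle and 15636, 10550 and 7516 CPM with CI-994, with 2 of its 13 genes at 0, and its part in these calls was not tested.

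Slc6a20b (ENSMUSG00000025243; mm10 chromosome 9, 123590800 to 123632565, minus strand) codes for a carrier of proline and other imino acids. It stood at 90.1, 80.8 and 40.7 CPM with vehicle and 649, 743 and 248 CPM with CI-994 (log2 fold change 2.78, SE 0.44, edgeR adjusted p = 0.0287). Of its 79 UMIs over all members, 76 lay in fibroblast-like nuclei and 19 in 1 nucleus of HDACi-CFC replicate 2. Its close copy Slc6a20a, far more abundant, was 3920, 3972 and 3922 CPM with vehicle and 10736, 4496 and 3295 CPM with CI-994, which overlapped. How the counting divided reads between these copies is not given in the sources used here, so the Slc6a20b value is uncertain to that extent.

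Ier3 (ENSMUSG00000003541; mm10 chromosome 17, 35821684 to 35822923, plus strand), an immediate early gene that answers stress and growth factors, had 0, 9 and 2 UMIs with vehicle and 9, 35 and 22 with CI-994. This was 0, 104 and 27.1 CPM against 649, 620 and 497 CPM (log2 fold change 3.32, SE 0.58, edgeR adjusted p = 0.038). No nucleus held more than 7 of its 80 UMIs over all members, and 37 of the 40 nuclei that had one were fibroblast-like. In the rest of the passing nuclei Ier3 lay between 1.66 and 3.30 CPM in each library.

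Neat1 (ENSMUSG00000092274; mm10 chromosome 19, 5824708 to 5845478, minus strand), the noncoding RNA that scaffolds nuclear paraspeckles, stood at 1329, 1062 and 326 CPM with vehicle and 5116, 3434 and 2076 CPM with CI-994 (log2 fold change 1.94, SE 0.36, edgeR adjusted p = 0.0403). Within the pericyte-like nuclei its log2 fold change was 1.77 (SE 0.69, edgeR adjusted p = 0.236), on 41 UMIs. Neat1 was also higher after CFC in the 253 astrocyte nuclei of the 4 CFC libraries (log2 fold change 2.25, edgeR adjusted p = 3.65e-06; 7.42% of 4692 genes called higher there, 5.2% lower and 12.6% in all).

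These calls in fibroblast-like nuclei rested on single libraries, although no sign changed. Without Veh-CFC replicate 1 or without HDACi-CFC replicate 2 none of the 3 was called, at edgeR adjusted p-values between 0.109 and 0.562. Ier3 was called without each of the other 4 libraries in turn, and Slc6a20b without each of these except Veh-CFC replicate 2. Neat1 was called without HDACi-CFC replicate 1 and was not called without either Context library or Veh-CFC replicate 2.

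**Figure D4:**
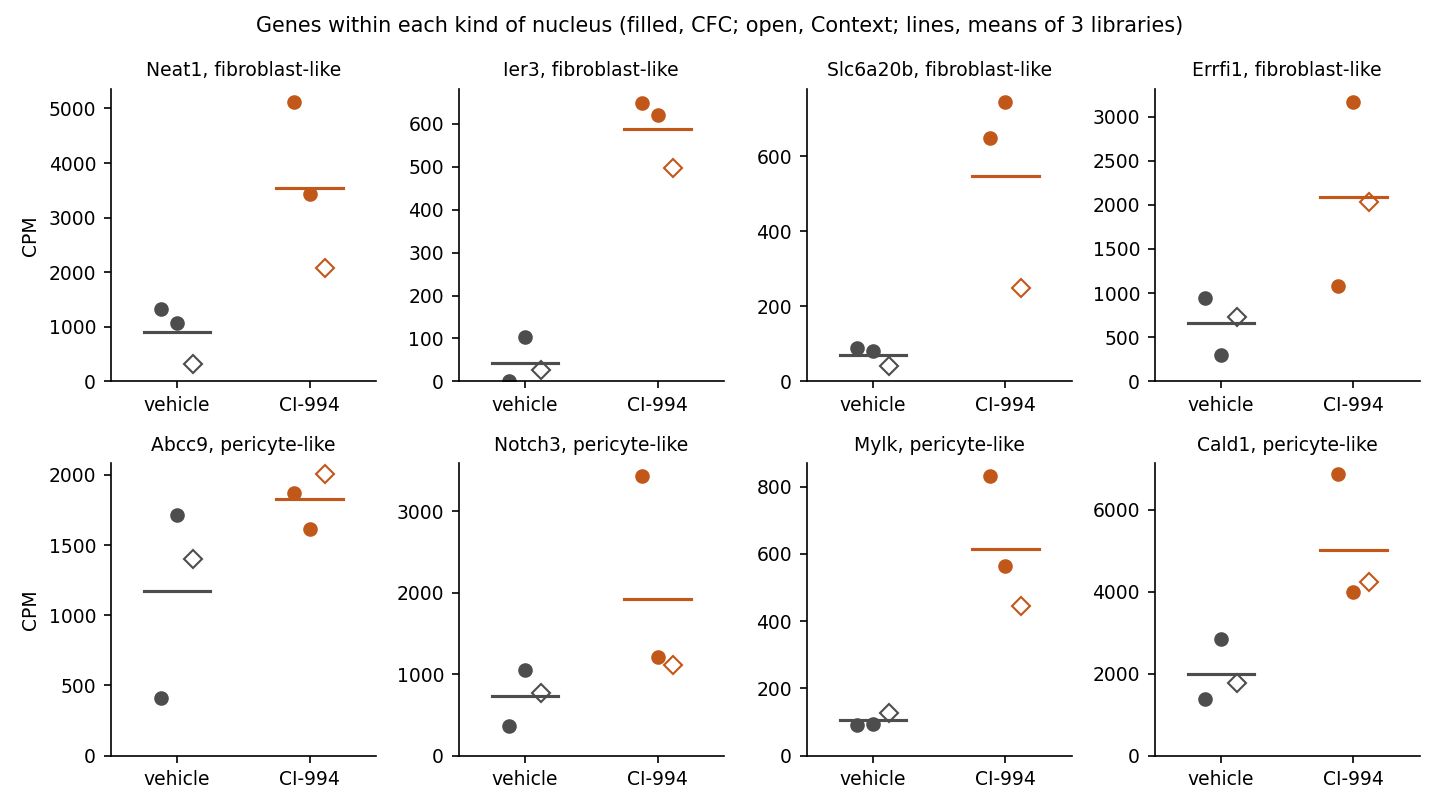
CPM (y) of 4 genes in fibroblast-like nuclei (top) and 4 genes in pericyte-like nuclei (bottom) in each library, by treatment (x). Filled circles are CFC libraries, open diamonds Context libraries, and lines the means of 3 libraries. Neat1, Ier3, Slc6a20b, Errfi1, Notch3, Mylk and Cald1 do not overlap between treatments in the kind shown, and Abcc9 does. The rule for naming genes required this of Neat1, Ier3 and Slc6a20b. Errfi1 was chosen after its values were seen, and the share of all tested genes that do not overlap is not given.

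Other fibroblast genes varied without passing. Errfi1, a feedback inhibitor of the EGF receptor with 406 of its 418 UMIs in fibroblast-like nuclei, was 946, 300 and 733 CPM with vehicle and 1081, 3169 and 2031 CPM with CI-994 (log2 fold change 1.61, SE 0.48, edgeR adjusted p = 0.27). Engase, a glycan-trimming enzyme with all 40 of its UMIs in these nuclei, was 22.5, 11.5 and 54.3 CPM with vehicle and 360, 283 and 293 CPM with CI-994 (log2 fold change 3.14, SE 0.69, edgeR adjusted p = 0.126). Slc7a11 had a log2 fold change of 0.21 in these nuclei. Ptgds ranged from 7154 CPM in HDACi-Context to 33002 CPM in HDACi-CFC replicate 1 and overlapped between the treatments.

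By lists, over both exposures and without the astrocyte-signal nuclei, none of the 23 tested leptomeningeal fibroblast genes was called (edgeR; median log2 fold change 0.15). None was called of 18 basement membrane genes (0.53), 6 collagen genes (-0.17), 18 solute carriers (0.39), 5 retinoid genes (0.18), 10 TGF-beta and BMP genes (0.32), 10 histone deacetylase and corepressor genes (0.44), 7 PDGF, angiopoietin and VEGF genes (0.70), 3 genes that such inhibitors induce in other cells (0.50) or 5 glucocorticoid-responsive genes (-0.05). Notch3 was the 1 called gene of 5 in the Notch list, Ier3 the 1 of 4 tested immediate early genes, and Arid5b the 1 of 7 in a list named from dentate granule nuclei. Of 18 contraction genes, Mylk and Cald1 were called. At an unadjusted p under 0.05 there were 11 higher and none lower of 13 pericyte genes. The counts were 16 and 1 of 25 vessel tone genes, and 3 and 1 of 23 fibroblast genes. Over all genes of that fit, 399 of 1954 were at that level in either direction. Abcc9, Kcnj8, P2ry14 and Rgs4 count in both the pericyte and the vessel tone lists, so these 2 counts are not separate.

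Lower genes in that fit included Scaf8, a regulator of transcript ends (211, 247 and 112 CPM with vehicle; 0, 24.6 and 15.0 CPM with CI-994; log2 fold change -3.30, SE 0.67, edgeR adjusted p = 0.0412). Nrxn3 was 1041, 381 and 123 CPM with vehicle and 42.6, 86.1 and 44.9 CPM with CI-994 (log2 fold change -2.81, SE 0.58). The called doublet carried much of the Nrxn3 value in Veh-CFC replicate 1, which stood at 357 CPM without it. The Nrxn3 log2 fold change was then -2.07 (SE 0.45), still called (edgeR adjusted p = 0.0295). Dcaf6, Myo9a, Xrn1 and Mgat4c had log2 fold changes between -2.12 and -1.65. For Scaf8, Nrxn3, Dcaf6, Myo9a, Xrn1 and Mgat4c each CI-994 library was below each vehicle library, which the rule for naming genes required. In the fibroblast-like nuclei alone Scaf8 had a log2 fold change of -2.86 and did not pass (edgeR adjusted p = 0.257).

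The labelled mural nuclei, fitted alone over 6 libraries, gave no call in either direction by edgeR among 715 genes (0.0%), with 154 at an unadjusted p under 0.05. Without the astrocyte-signal nuclei there was also no call among 685 genes, with 164 at an unadjusted p under 0.05. DESeq2 was not run on this subset. Leptomeningeal nuclei were not fitted, because HDACi-CFC replicate 1 held 3 of them. The fits in pericyte-like and fibroblast-like nuclei above had 7 and 6 nuclei in that library. In the members without the astrocyte-signal nuclei the endothelial list summed to 298 to 689 CPM with 3 of its 20 genes at 0, the microglia and macrophage list to 213 to 817 CPM with 1 of 15 at 0, and the choroid plexus list to 128 to 394 CPM with 4 of 12 at 0. The astrocyte list was higher, at the 5169 to 11621 CPM given above, and so was the neuron list, at 3265 to 7637 CPM. The highest neuron list value was that of Veh-CFC replicate 1. Without the called doublet that library stood at 3930 CPM for the neuron list and 4823 CPM for the astrocyte list.

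The drug effect after CFC was next set against that in neighbouring cells. Against the 44 endothelial nuclei (28 in the CFC libraries), no gene of 720 differed in its drug effect by edgeR (0.0%; 44 at an unadjusted p under 0.05), and DESeq2 was not run on this interaction. Against astrocyte nuclei, chosen by Gja1 and Aqp4, 14 genes of 3753 had a higher drug effect in the members and 3 a lower one (0.453% called; 0.373% and 0.0799%). Mir9-3hg, a host transcript of miR-9, had 0 and 0 UMIs with vehicle and 7 and 19 with CI-994 in the members, and 32, 52, 63 and 116 in the astrocyte nuclei of the same libraries. Etnppl, a phospholyase of astrocytes, had 0 and 1, then 5 and 17 UMIs in the members. Without the astrocyte-signal nuclei 1 gene was higher and 4 were lower in this comparison.

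The fold change of P2ry14 differed between these sums: 12, 14, 21 and 29 UMIs in the members of Veh-CFC replicates 1 and 2 and HDACi-CFC replicates 1 and 2, and 26, 53, 15 and 8 in the astrocyte nuclei (difference of log2 fold changes 2.65, SE 0.60, edgeR adjusted p = 0.0136). Within the pericyte-like nuclei, a larger part of the members with CI-994, its log2 fold change was 0.47 (SE 0.48, both exposures, TMM). The part of makeup in the difference was not tested. With all 6 libraries 1 of the 7 genes named in this comparison kept its call. Adarb2, an RNA-editing family member of interneurons, was lower in the members, but 1 nucleus of Veh-CFC replicate 2 held 27 of the 47 UMIs it had over all members.

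Selecting genes were also read outside the members, in all passing nuclei with at least 4 UMIs of Gja1 and Aqp4 and few neuronal UMIs, which the choice of members excluded. Pdgfrb there was 99.7, 86.8 and 37.4 CPM with vehicle and 288, 197 and 152 CPM with CI-994, from 10 to 87 UMIs per library, and each CI-994 library was above each vehicle library. Its log2 fold change after CFC was 1.53 (SE 0.26, edgeR adjusted p = 0.0052; 14.4% of 5709 genes called there, 8.93% higher and 5.43% lower). Over both exposures it was 1.73 (edgeR adjusted p = 5.3e-05; 22.9% of 6260 genes called there, 13.8% higher and 9.04% lower). Col1a1, a collagen chain, numbered 4 and 6 UMIs with vehicle after CFC and 15 and 35 with CI-994 (log2 fold change 2.44, edgeR adjusted p = 0.00507). In the Context libraries it had 4 UMIs with vehicle and 7 with CI-994. Rgs5 had at most 1 UMI in any of these libraries. Vtn overlapped, at 60.5, 11.6 and 0 CPM with vehicle and 62.3, 56.7 and 15.5 CPM with CI-994. Col1a2 had 1, 3 and 0 UMIs with vehicle and 10, 10 and 5 with CI-994. Slc6a13 had 1, 0 and 0, then 3, 28 and 2. Nuclei with vascular UMIs and called doublets were not excluded there. All 21 astrocyte-signal nuclei among the members had at least 1 Pdgfrb UMI, and the part of this higher level in their number was not tested.

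**Figure D5:**
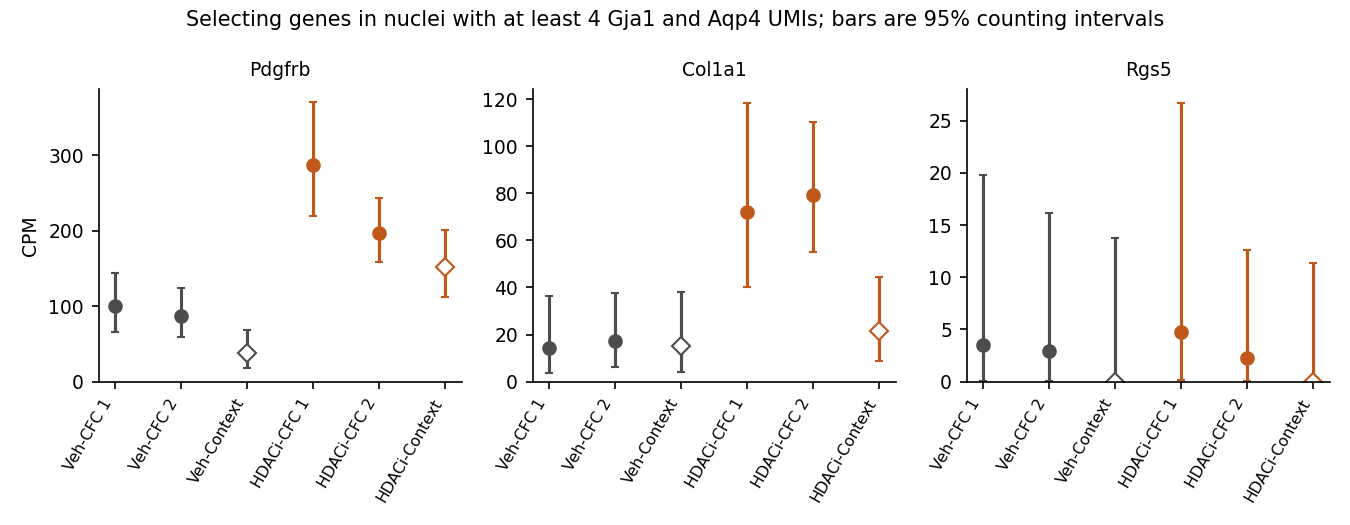
CPM (y) of Pdgfrb, Col1a1 and Rgs5 in nuclei with at least 4 Gja1 and Aqp4 UMIs in each library (x), with 95% counting intervals. Grey is vehicle, orange CI-994, filled CFC and open Context. Pdgfrb is higher in each CI-994 library than in each vehicle library, and Rgs5 is at or near 0 in all 6.

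Between CFC and Context, with drug in the model, 16 genes were higher and 18 lower of 2283 (1.49% called; 0.701% and 0.788%; edgeR). The lower ones were led by AY036118 (10, 9, 4 and 6 UMIs in the CFC libraries and 173 and 205 in the Context libraries), then Cmss1 (9, 14, 6 and 15 against 251 and 222) and Pcp4. These groups stood far apart, and exposure and library batch cannot be told apart in them. Rgs20, Rorb, Ctnna2 and Ntrk2 were the highest named, with log2 fold changes from 2.69 to 3.14. Without the astrocyte-signal nuclei 1 gene was higher and 15 were lower. Without the 10272-UMI nucleus 2 were higher, Ntrk2 and Meg3, and 15 lower.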

How the data were processed

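Single-nucleus 10x libraries (6, each from 5 pooled mice) were read from the deposited matrices of raw UMI counts, made with Cell Ranger (3.0.1 or 3.0.2 per the file headers) on mm10 per the submitters' processing notes, which also name Seurat 4.0.3. Whether intronic reads were counted is not given in the sources used here. Only called barcodes were held, so free RNA was not measured.

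Counts were summed per library over the chosen nuclei and tested with edgeR 4.0.16 (quasi-likelihood F test, filterByExpr, TMM, two-sided, Benjamini-Hochberg over all tested genes, without the 17 genes of the rule in fits over the members; threshold 0.05) in R 4.3.3. DESeq2 1.42.0 was an alternative. CPM are UMIs per 1000000 UMIs of the same nuclei, without TMM factors, and an SE is the log2 fold change over the root of its F. Doublets were called with Scrublet in scanpy 1.11.5 (expected rate 0.06) and kept. The fit was tested on simulated counts. The members and gene lists were chosen with earlier results of these data known. The 3 kinds of member, the fits without the astrocyte signal (Slc1a2 and Gpc5 at 10 or more per 1000 UMIs) and within each kind with their alternatives, the fits without HDACi-Context or without the 10272-UMI nucleus, and the reading of selecting genes in astrocytes were added after the data were seen. Named genes had to be called, have at least 40 UMIs, carry no clone or model name and not overlap between groups: the 12 highest and lowest after CFC, 6 over both exposures and 4 elsewhere; of the lists, called and abundant members, while genes outside this (Errfi1, Prkg1 and leading genes of each kind, among others) were chosen after their values were seen. Coordinates are from GENCODE M21. Replicates of a group differed by more than independent draws of UMIs would (chi-square over degrees of freedom 2.11 and 1.76). This measure does not allow for the sampling of few, unlike nuclei, so it does not separate that from library differences. The p-values measure the spread between pooled libraries.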

Additional observations from a re-analysis of the deposited data

Results flagged for a closer look

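In 17 genes of 3753 tested (0.453%) the fold change with CI-994 after CFC differed between the members and the astrocyte nuclei by a test of the difference itself (edgeR interaction). The members mixed kinds in proportions that differed between treatments, and the part of this was not tested. The 14 with the higher effect in the members included Mir9-3hg, Etnppl, Slc39a12 and P2ry14, and the 3 with the lower effect were Adarb2, Fbxl7 and Cntnap2. Without the 21 astrocyte-signal nuclei 1 gene was higher and 4 were lower. With all 6 libraries 1 was higher and 0 lower, so most of these calls were not stable.

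A signal of genes that chose the members also appeared outside them. In nuclei with at least 4 Gja1 and Aqp4 UMIs the log2 fold change with CI-994 after CFC was 1.53 for Pdgfrb and 2.44 for Col1a1, above the vehicle libraries in both HDACi-CFC replicates.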

How the results depend on the processing

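The counts of genes called after CFC (67 higher, 23 lower) changed with most choices: to 11 and 3 with DESeq2, 0 and 0 with at least 5 selecting UMIs, 20 and 3 with at least 1000 genes per nucleus, 14 lower without called doublets, 0 and 0 with at least 2 UMIs of 11 independent vascular markers, 0 and 0 without the astrocyte signal, and, leaving out single libraries, from 0 to 46 higher and 0 to 28 lower (none without Veh-CFC replicate 1). Slc1a2, which with Gpc5 defined that signal, turned to -0.35 (log2) there without the astrocyte signal. That fit kept the 10272-UMI nucleus, without which Slc1a2 in Veh-CFC replicate 1 went from 19 UMIs to 1. Library-size scaling (59 and 23) and no filter on low counts (51 and 20) changed the counts of called genes by less than 1.5 times. Over both exposures (0 and 0) the counts became 65 and 23 with no filter on low counts, 10 and 2 with DESeq2, 24 and 10 with at least 5 selecting UMIs, 38 and 7 without the astrocyte signal, and 0 to 80 higher and 0 to 19 lower when 1 library was left out, both above 0 without either Context library. In the members without the astrocyte signal the 38 and 7 were 25 and 3 with DESeq2 and 0 to 10 higher and 0 to 6 lower without 1 library. Without 1 nucleus of 10272 UMIs in Veh-CFC replicate 1, the called doublet, 14 were lower after CFC, and 41 were higher and 12 lower over both exposures without the astrocyte signal. The causes were not tested.

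Against endothelial nuclei (0 and 0) 1 was higher without the astrocyte signal, and 0 to 1 when 1 library was left out. Against astrocyte nuclei (14 and 3) the counts were 37 and 5 with library-size scaling, 1 and 0 with all 6 libraries, 1 higher and 4 lower without the astrocyte signal, where Slc39a12 turned to -3.24, and 0 to 24 higher and 0 to 10 lower without 1 library. In mural nuclei (0 and 0) 0 to 2 were lower without 1 library. For exposure (16 and 18) 1 was higher without the astrocyte signal, and 0 to 26 higher and 7 to 19 lower without 1 library. Without the 10272-UMI nucleus 2 were higher. In pericyte-like nuclei 5 were higher with library-size scaling, 1 higher and 1 lower without that nucleus, 6 higher with both, and 0 to 7 were lower, and in fibroblast-like nuclei 0 to 5 higher and 0 to 7 lower, without 1 library. The share in Veh-CFC, 0.718%, was 0.575% with at least 5 selecting UMIs and 0.665% after thinning nuclei to 1500 UMIs, which also left out shallower nuclei: in those kept, the 2 libraries stood at 0.591 and 0.710% unthinned and 0.619 and 0.710% thinned.

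Replicate numbers did not pair the CFC libraries: deviations of same-numbered libraries correlated at -0.005 over 1991 genes. With the replicate block 115 genes were higher and 40 lower after CFC. The fits in leptomeningeal nuclei and between mural and leptomeningeal nuclei were not run, since HDACi-CFC replicate 1 had 3 leptomeningeal nuclei against a minimum of 10. That minimum was not applied to the fits within kinds, in mural nuclei without the astrocyte signal or against endothelial nuclei. In HDACi-CFC replicate 1 these rested on 7 pericyte-like, 6 fibroblast-like, 9 such mural and 5 endothelial nuclei.

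Depth limits all of this: the members of a library held 37620 to 114377 UMIs, and the pericyte-like nuclei 9614 to 24820, so a gene at 100 CPM gave only a few UMIs there and small differences in such genes were not detectable.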
